A study of Mus musculus with 6 samples.

Results

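The 9 genes described here carry out antigen presentation by major histocompatibility complex (MHC) class I in the mouse. They are the heavy chains H2-K1 and H2-D1, the light chain B2m, the peptide transporter genes Tap1 and Tap2, the loading factor Tapbp, and the immunoproteasome subunits Psmb8, Psmb9 and Psmb10. They were chosen by gene symbol, and all 9 were found among the 11417 genes listed. Poly(A) RNA was sequenced from 3 untreated mouse mammary epithelial lines, BC44, HC11 and C57MG, with 2 libraries per line and 6 in all. All lines were grown on plastic and harvested 2 days after plating. Each medium held 10% serum. The medium of BC44 was RPMI plus insulin at 5 µg/ml, that of HC11 also contained epidermal growth factor at 10 ng/ml, and that of C57MG was DMEM plus insulin at 10 µg/ml. The labels give no strain; as background, HC11 is a clonal line from BALB/c mammary cells and C57MG comes from C57BL/6 mice. The strain of BC44 is not stated. Line and medium change together, and strain also changes between HC11 and C57MG, so the contributions of line, strain and medium cannot be told apart. The labels do not say that the 2 libraries of a line came from separate cultures, so the p-values measure the spread between these libraries only.

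Class I molecules show peptides from a cell's own proteins to CD8+ T cells. The proteasome cuts those proteins, the Tap1 and Tap2 transporter carries the peptides into the endoplasmic reticulum, and tapasin, the product of Tapbp, holds the empty heavy chain and B2m beside the transporter until a peptide is bound. Most cell types make class I at a basal level, and interferon gamma is known to raise the whole set, including the immunoproteasome subunits that take the place of the constitutive catalytic subunits.

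Levels are given in the authors' deposited unit, RPKM, which divides reads by the gene's length in kilobases and by every 1000000 reads of the library. The denominators estimated from the steps between low values ranged from 14050000 to 18420000 reads per library, so that 3 reads on a gene of 2 kb correspond to 0.081 to 0.107 RPKM. Replicate libraries correlated across the tested genes with Pearson's r of 0.9899 to 0.9955, as a description across genes, which are not independent. The label of mammary epithelium fits HC11, where all 9 epithelial markers reached 1 RPKM, and BC44 in 6 of the 9. These markers summed to between 2254 and 5040 RPKM in the 2 lines. In BC44 most of the sum was Krt5 and Krt14 (means of 1920 and 2726 RPKM). Krt8, Krt18 and Cldn3 averaged 0.051, 0 and 0 RPKM in BC44. In C57MG the sum was 137 and 65.5 RPKM, and Epcam was at 0.949 and 0 RPKM. The 6 listed mesenchymal markers summed to 3626 and 3288 RPKM in C57MG and to between 205 and 292 RPKM in the other lines. Of 13 leukocyte markers only Cd68 and Itgb2 were analysed here, and together they summed to 1.51 to 4.14 RPKM per library. Nothing here separates a lower share of cells expressing a gene from less RNA per cell.

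Both C57MG libraries lay above all others for 7 of the 9 genes, as they did for 32.3% of all listed genes. Both HC11 libraries were highest for the other 2, H2-K1 and Psmb10 (19.1% of all listed genes). Psmb8 had its lowest mean in HC11 and the other genes in BC44, a description for which no share of all listed genes was counted. In 5 genes, H2-D1, B2m, Tap2, Tapbp and Psmb9, the lines stood in the order C57MG, HC11, BC44 with no overlap between libraries, an order found in 11.4% of all listed genes. H2-K1 and Psmb10 followed the order HC11, C57MG, BC44 without overlap, as did 4.58% of all listed genes. Psmb8 followed the order C57MG, BC44, HC11 (10.8% of all listed genes), and for Tap1 the libraries of HC11 and BC44 overlapped. The order of HC11 and BC44 rests on few reads for Psmb9 and Psmb8. For Psmb9 there were an estimated 7 reads and 1 read in HC11 and 0 in BC44. For Psmb8 the libraries of these lines held an estimated 6 to 26 reads. The plot of the 9 genes by library shows these orders.

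**Figure D1:**
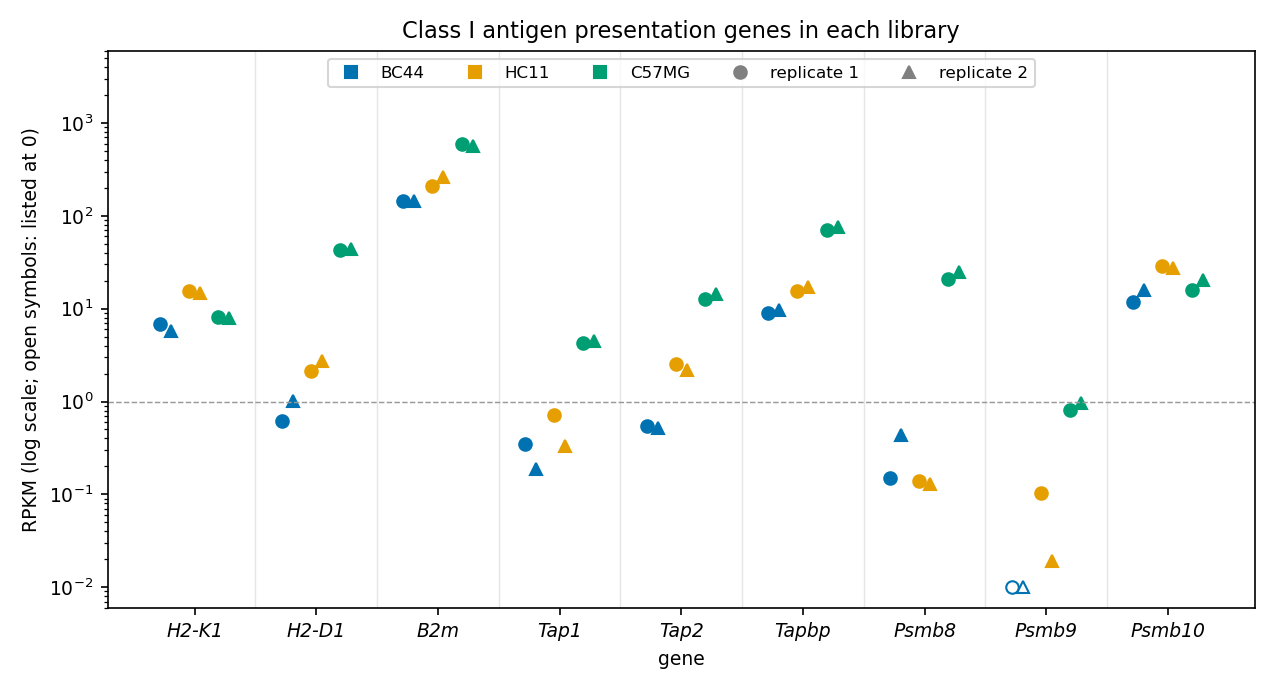
RPKM (log scale) of the 9 class I presentation genes in each of the 6 libraries; colour gives the line and the symbol the replicate, open symbols mark values listed at 0, and the dashed line is 1 RPKM. C57MG libraries lie above all others for 7 genes, while for H2-K1 and Psmb10 the HC11 libraries are highest.

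Differences were tested with limma on log2(RPKM + 1) over all genes with at least 1 RPKM in at least 2 libraries, with p-values adjusted by Benjamini-Hochberg over the 10759 genes tested and a threshold of 0.05. On that scale the change of low genes is understated. Psmb9, with less than 1 RPKM throughout, was left out, and Tap1 and Psmb8 entered only because both C57MG libraries exceeded 1 RPKM. The 3 comparisons share libraries, so they are not independent of each other. Between BC44 and HC11, 6 of the 8 tested genes passed where 47.7% of all tested genes did. All 6 were higher in HC11, the direction of 2470 of the 5129 genes called. Between BC44 and C57MG, 7 of the 8 passed (71.7% of all tested genes), all higher in C57MG (34.1%). Between HC11 and C57MG, all 8 passed (70.5% of all tested genes), 6 higher in C57MG (33.2% of all tested genes) and 2 higher in HC11 (37.4%). With no filter on low values all 9 genes were tested, and 6, 8 and 9 of them passed in the same order of comparisons, beside 47.2%, 71.1% and 69.9% of all genes. Their median log2 differences were then -0.72, -2.08 and -1.83, against 0.02, 0.04 and 0.03 for all genes.

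**Figure D2:**
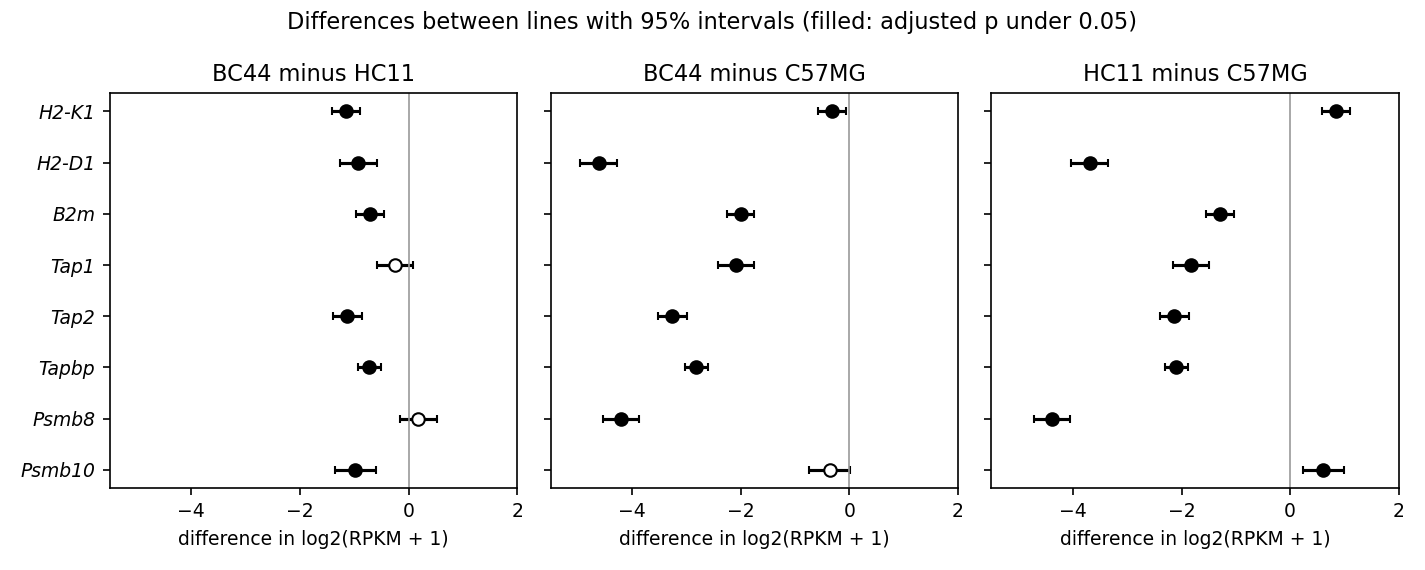
Difference in log2(RPKM + 1) between lines for the 8 tested genes, with 95% intervals from the limma fit; filled points have an adjusted p under 0.05. In both comparisons with C57MG, H2-D1 and Psmb8 lie farthest to the left, and H2-K1 and Psmb10 lie to the right of 0 in HC11 minus C57MG.

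The heavy chains bind the peptide and are the part that T cells recognise, and the 2 heavy chain genes did not follow each other across the lines. H2-D1 (ENSMUSG00000073411, chromosome 17) was at 42.4 and 43.9 RPKM in C57MG, 2.13 and 2.73 RPKM in HC11, and 0.610 and 1.02 RPKM in BC44. The C57MG libraries were far above the rest and the HC11 libraries above those of BC44. Mean H2-D1 RPKM was 52.9-fold higher in C57MG than in BC44 and 17.8-fold higher than in HC11, the largest log2 difference of the 8 tested genes for BC44 against C57MG (-4.61, SE 0.14, limma adjusted p 2.86e-07). The BC44 values rest on an estimated 23 and 46 reads. The ratio of C57MG to BC44 was 42.2 without BC44 replicate 1 and 70.8 without BC44 replicate 2. For HC11 against C57MG the log2 difference of H2-D1 was -3.69 (SE 0.14, limma adjusted p 6.469e-07), and for BC44 against HC11 it was -0.92 (SE 0.14, limma adjusted p 0.00167).

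H2-K1 (ENSMUSG00000061232, chromosome 17) was highest in HC11, at 15.6 and 14.9 RPKM, against 8.15 and 8.01 RPKM in C57MG and 6.92 and 5.74 RPKM in BC44. No libraries of different lines overlapped, but the whole range of H2-K1 was narrow beside that of H2-D1. H2-K1 exceeded its BC44 level by 2.41-fold in HC11 (log2 difference -1.15 for BC44 against HC11, SE 0.11, limma adjusted p 0.00014) and its C57MG level by 1.89-fold (0.84 for HC11 against C57MG, SE 0.11, adjusted p 0.000291). The difference between BC44 and C57MG was small, -0.31 (SE 0.11, limma adjusted p 0.0328), and did not pass without BC44 replicate 2 (-0.20, adjusted p 0.173), without C57MG replicate 1 (adjusted p 0.139) or without C57MG replicate 2 (adjusted p 0.117). The ratio of H2-D1 to H2-K1, both per kilobase, was 5.21 and 5.48 in C57MG, 0.136 and 0.184 in HC11, and 0.0881 and 0.178 in BC44. H2-D1 was thus the more abundant heavy chain transcript in C57MG and H2-K1 in the other lines.

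Class I heavy chain genes differ between mouse strains and resemble each other, and the reads were set against mm9, a C57BL/6J genome, per the submitters' processing notes. In the reference transcripts of GENCODE M21, 9.63% of the 50-base windows of H2-K1 and 12.8% of those of H2-D1 also occur in transcripts of other genes, among them H2-Q7 and each other's. For B2m, Psmb9 and Psmb10 the share was 0. How reads from shared or strain-specific stretches were assigned is not given in the sources used here, and the part of this in the H2-K1 and H2-D1 values was not tested.

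The proximal promoters of the 2 heavy chain genes are shown because the transcripts differ so much in their order over the lines. Both stretches are from RefSeq promoter windows of GRCm38.p6, read 5′ to 3′ on the strand of the gene: H2-K1 at chr17:34000348-34000463 (minus strand) and H2-D1 at chr17:35262918-35263033 (plus strand). Capitals mark, from left to right, the kappaB site of the class I enhancer (GGGGATTCCCC), the X2 box (TGACGC) and the reverse complement of the Y box (CCAAT).
H2-K1: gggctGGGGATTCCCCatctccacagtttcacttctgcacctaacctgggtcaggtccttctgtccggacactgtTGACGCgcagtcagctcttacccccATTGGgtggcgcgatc
H2-D1: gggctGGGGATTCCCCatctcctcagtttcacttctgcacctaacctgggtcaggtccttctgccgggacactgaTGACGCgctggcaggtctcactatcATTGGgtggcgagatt
The stretches were identical at 103 of 116 positions (88.8%), with 13 mismatches and no gap, and the 3 marked motifs lay at the same spacing in both. On either strand the kappaB letters occur in 10 of 32851 RefSeq promoter windows of 300 bases (0.0304%), the X2 letters in 7.40% and the Y box letters in 37.4%. The letters were chosen with these sequences in view, and the matches describe the C57BL/6J reference, not the alleles of BC44 or HC11.

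B2m (ENSMUSG00000060802, chromosome 2), which encodes the light chain that every class I molecule needs to fold, was by far the most abundant of the 9 genes per kilobase. It was at 591 and 568 RPKM in C57MG, above 99.6% of listed genes in both libraries, at 211 and 263 RPKM in HC11, and at 145 and 143 RPKM in BC44. The lines did not overlap, and the BC44 libraries were almost equal. Mean B2m was 4.03-fold higher in C57MG than in BC44 (log2 difference -2.003, SE 0.11, limma adjusted p 2.46e-06) and 2.44-fold higher than in HC11 (-1.29, SE 0.11, adjusted p 2.8e-05). HC11 exceeded BC44 by 1.65-fold (-0.71 for BC44 against HC11, SE 0.11, limma adjusted p 0.00149). Per kilobase, B2m was 10.9 to 21.2 times the sum of H2-K1 and H2-D1 in the 6 libraries, lowest in C57MG replicate 2 and highest in BC44 replicate 2.

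The B2m promoter is printed for comparison with the heavy chains, since B2m followed the line order of H2-D1 over a smaller range. The stretch is chr2:122147542-122147647 on the plus strand (GRCm38.p6, RefSeq), and capitals mark an interferon response repeat (GAAANNGAAA), the half-site TGACG, whose letters are also the start of the X2 box, and the reverse complement of the Y box.
B2m: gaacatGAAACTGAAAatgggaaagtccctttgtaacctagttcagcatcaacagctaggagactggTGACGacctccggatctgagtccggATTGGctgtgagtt
The interferon response repeat occurs in 3.44% of all RefSeq windows and the half-site in 20.8%, on either strand. These letters of the repeat were not found in the windows of the other 7 genes that had one, which says only that those letters are not there. Other forms of such a repeat were not searched for, in the heavy chain stretches or elsewhere.

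The transporter genes and Tapbp were all highest in C57MG. Tapbp (ENSMUSG00000024308, chromosome 17) was at 69.6 and 75.2 RPKM in C57MG, 15.4 and 16.9 RPKM in HC11 and 9.07 and 9.70 RPKM in BC44. Its lines were well apart, with a 7.72-fold higher mean in C57MG than in BC44 (log2 difference -2.82, SE 0.09, limma adjusted p 2.936e-07) and a 4.49-fold higher mean than in HC11 (-2.10, SE 0.09, adjusted p 9.639e-07). BC44 was below HC11 by -0.72 (SE 0.09, limma adjusted p 0.000567).

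Tap2 (ENSMUSG00000024339, chromosome 17) was at 12.7 and 14.6 RPKM in C57MG, 2.52 and 2.16 RPKM in HC11 and 0.543 and 0.515 RPKM in BC44. The 3 lines were separate, and the BC44 values rest on an estimated 29 and 34 reads. Mean Tap2 was 25.8-fold higher in C57MG than in BC44 (log2 difference -3.26, SE 0.11, limma adjusted p 3.553e-07), 5.83-fold higher in C57MG than in HC11 (-2.13, SE 0.11, adjusted p 2.704e-06) and 4.42-fold higher in HC11 than in BC44 (-1.13 for BC44 against HC11, SE 0.11, adjusted p 0.000199).

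Tap1 (ENSMUSG00000037321, chromosome 17), the partner that forms the transporter with Tap2, was lower than Tap2 in every library. It was at 4.26 and 4.48 RPKM in C57MG, 0.718 and 0.331 RPKM in HC11 and 0.350 and 0.188 RPKM in BC44. The libraries of HC11 and BC44 overlapped, and HC11 replicate 1 was more than double replicate 2. The BC44 values rest on an estimated 27 and 18 reads. C57MG exceeded BC44 by 16.3-fold (log2 difference -2.08, SE 0.14, limma adjusted p 7.835e-06) and HC11 by 8.33-fold (-1.83, SE 0.14, adjusted p 1.847e-05). Without HC11 replicate 1 the last of these ratios was 13.2. Between BC44 and HC11 the difference was -0.26 (95% interval -0.59 to 0.08, limma adjusted p 0.178), and it passed only when HC11 replicate 2 was left out (-0.44, adjusted p 0.0307).

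Psmb8, Psmb9 and Psmb10 encode the catalytic subunits that replace Psmb5, Psmb6 and Psmb7 of the constitutive proteasome, and the 3 subunits differed in their order over the lines. Psmb8 (ENSMUSG00000024338, chromosome 17) was at 20.7 and 24.9 RPKM in C57MG, 0.138 and 0.128 RPKM in HC11 and 0.15 and 0.44 RPKM in BC44. C57MG alone had more than 1 RPKM, and the other libraries rest on an estimated 6 to 26 reads. The ratio of mean Psmb8 RPKM was 77.3 for C57MG over BC44 (log2 difference -4.20, SE 0.14, limma adjusted p 3.226e-07) and 172 for C57MG over HC11 (-4.39, SE 0.14, adjusted p 3.361e-07). Without BC44 replicate 2 the first ratio was 152. BC44 and HC11 differed by 0.18 (95% interval -0.15 to 0.52, limma adjusted p 0.329).

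Psmb9 (ENSMUSG00000096727, chromosome 17) was the least abundant of the 9 genes in C57MG, at 0.802 and 0.975 RPKM, or an estimated 53 and 55 reads. In HC11 it was at 0.103 and 0.019 RPKM, an estimated 7 reads and 1 read, and it was listed at 0 in both BC44 libraries. C57MG was above every other library, and the levels of the other lines lie near the limit of detection. Psmb9 was tested only with no filter on low values, where it passed for BC44 against C57MG (log2 difference -0.92, limma adjusted p 3.857e-05) and HC11 against C57MG (-0.83, adjusted p 7.157e-05) and not for BC44 against HC11 (-0.08, adjusted p 0.414), sizes that depend on the pseudocount.

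Psmb10 (ENSMUSG00000031897, chromosome 8) was expressed in all 3 lines and was highest in HC11. It was at 28.8 and 27.3 RPKM in HC11, 16.1 and 20.1 RPKM in C57MG and 11.7 and 16.1 RPKM in BC44. The lower C57MG library (16.077 RPKM) and the higher BC44 library (16.065 RPKM) were almost equal. HC11 exceeded BC44 by 2.02-fold (log2 difference -0.98 for BC44 against HC11, SE 0.16, limma adjusted p 0.00193) and C57MG by 1.55-fold (0.61, SE 0.16, adjusted p 0.00982). The second of these did not pass without C57MG replicate 1 (adjusted p 0.072) or without HC11 replicate 1 (0.0594). BC44 and C57MG differed by -0.37 (95% interval -0.74 to 0.01, limma adjusted p 0.0709), a difference that passed without BC44 replicate 2 (-0.58, adjusted p 0.0189), without C57MG replicate 1 (-0.52, adjusted p 0.0477) and with the replicate number as a block (adjusted p 0.0308).

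Psmb5 and Psmb6 varied much less between lines than Psmb8 and Psmb9, which replace them, while the largest ratio between lines was 1.56 for Psmb7 and 2.02 for Psmb10. Psmb5 had a mean of 61.5 ± 1.78 RPKM (SD, n = 2) in C57MG, 38.2 ± 0.634 in HC11 and 35.3 ± 1.22 in BC44, so it too was higher in C57MG than in BC44 (log2 difference -0.78, limma adjusted p 4.552e-05). Psmb7 was at 224 ± 11.1, 144 ± 3.46 and 160.5 ± 0.0721 RPKM in the same order of lines. Psmb6 was highest in HC11, at 94.0 ± 6.09 RPKM, against 64.5 ± 4.09 in C57MG and 70.1 ± 1.86 in BC44 (SD, n = 2 each). Psmb8 amounted to 33.0% and 41.3% of Psmb5 in C57MG and to between 0.339% and 1.28% in the other 4 libraries. Psmb9 amounted to 1.19% and 1.58% of Psmb6 in C57MG. Psmb10 amounted to 20.4% and 18.7% of Psmb7 in HC11, 6.94% and 9.31% in C57MG and 7.31% and 10.0% in BC44. The share of the 3 immunoproteasome genes in the summed RPKM of all 6 catalytic genes was 9.41% and 12.0% in C57MG, 9.45% and 9.12% in HC11 and 4.25% and 5.89% in BC44. C57MG and HC11 thus had similar summed shares made up of different genes, Psmb8 and Psmb10 in C57MG and almost only Psmb10 in HC11.

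**Figure D3:**
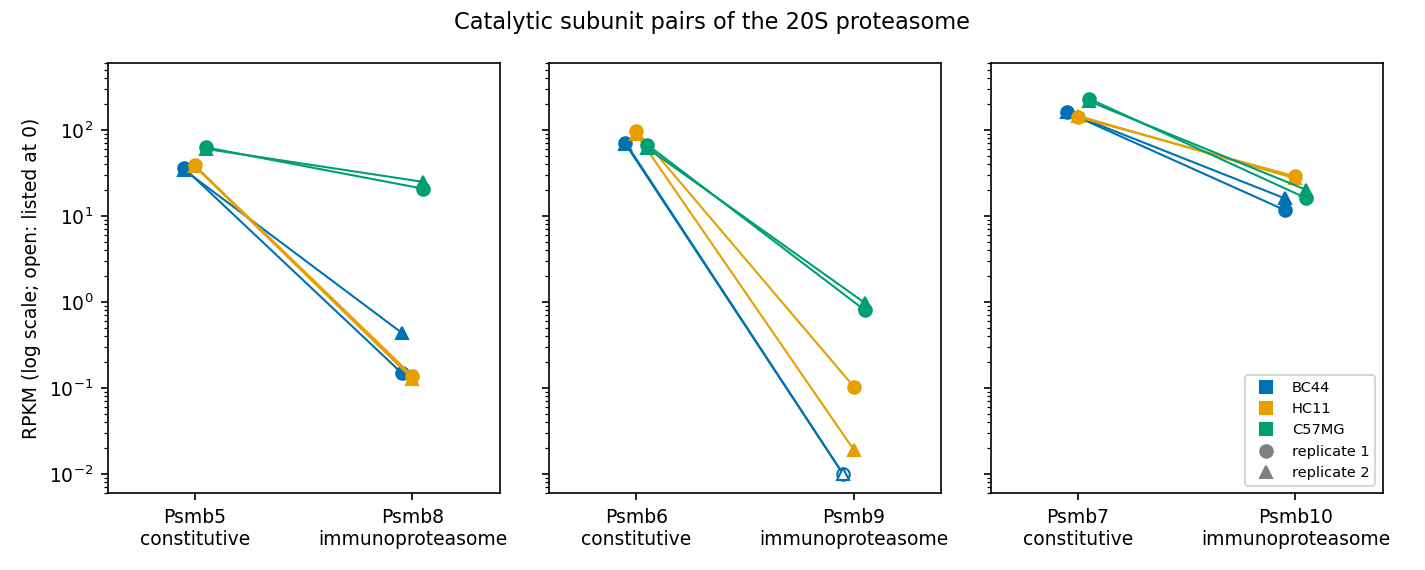
RPKM (log scale) of each constitutive catalytic subunit and of the immunoproteasome subunit that replaces it, joined by a line for each library; open symbols mark values listed at 0. Psmb8 falls below 1 RPKM in BC44 and HC11, while Psmb10 stays between 11.7 and 28.8 RPKM in all 6 libraries.

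In RefSeq's order of protein-coding genes, Psmb9, Tap1, Psmb8 and Tap2 follow each other on chromosome 17 with no other gene between them, and Psmb9 and Tap1 are read outward from starts that are 225 bases apart. These bases are shown because Psmb9 and Tap1 share them as their upstream sequence and both were highest in C57MG. The stretch is chr17:34187331-34187555 (GRCm38.p6), written on the plus strand, so that it runs from the Psmb9 start to the Tap1 start, with the Y box letters CCAAT and the half-site TGACG in capitals.
Tap1 and Psmb9: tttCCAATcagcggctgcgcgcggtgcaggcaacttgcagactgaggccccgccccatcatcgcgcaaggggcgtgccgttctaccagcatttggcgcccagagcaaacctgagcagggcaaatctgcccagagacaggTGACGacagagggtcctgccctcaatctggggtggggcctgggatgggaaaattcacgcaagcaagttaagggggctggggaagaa
Although they share this stretch, Tap1 was above Psmb9 in every library, at 4.26 against 0.802 RPKM and 4.48 against 0.975 RPKM in the C57MG libraries. The levels are per kilobase and depend on the gene length that was used. Neither the kappaB letters nor the interferon response repeat was found in this window, which says only that those letters are not there. Of the 9 genes 8 had a RefSeq promoter window, and Tap2 is named only.

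Libraries of BC44 carried a low level of genes that are abundant in C57MG, and the lowest values in BC44 should be read beside it. Vim, an intermediate filament of mesenchymal cells, was in BC44 at 0.609% (replicate 1) and 1.98% (replicate 2) of the mean in C57MG. Col1a1 was at 0.610% and 2.03%, and Pdgfrb at 0.629% and 1.90%. Psmb8 was at 0.658% and 1.93% of its C57MG mean in the same libraries, which are nearly the same shares. H2-D1 was at 1.41% and 2.37%, Tap2 at 3.98% and 3.77%, Tap1 at 8.01% and 4.30%, Tapbp at 12.5% and 13.4%, and B2m at 25.0% and 24.7%, all above the share of Vim in the same library. The other 3 mesenchymal markers had higher shares in BC44, with Col1a2 at 1.71% and 3.08%, Pdgfra at 5.46% and 5.64%, and Fn1 at 35.2% and 35.7%. H2-D1 was thus below Col1a2, Tap2 below Pdgfra, and Tapbp and B2m below Fn1 in both BC44 libraries. In HC11, Psmb8 was at 0.605% and 0.561%, below Vim (0.926% and 1.07%), Pdgfra (14.1% and 13.7%) and Fn1 (27.2% and 39.5%) and above Col1a1 (0.103% and 0.121%), Col1a2 (0.0474% and 0.0861%) and Pdgfrb (0.111% and 0.125%). What part this level has in the BC44 values of Psmb8 and H2-D1 was not tested. C57MG replicate 1 in turn held low levels of epithelial markers. Epcam, Cdh1, Krt5 and Esrp1 were at 0.949, 1.09, 16.0 and 0.439 RPKM there, against 0, 0, 0.148 and 0 RPKM in C57MG replicate 2. Krt14 was at 118 and 64.8 RPKM in replicates 1 and 2, while Krt8 and Krt18 were higher in replicate 2.

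**Figure D4:**
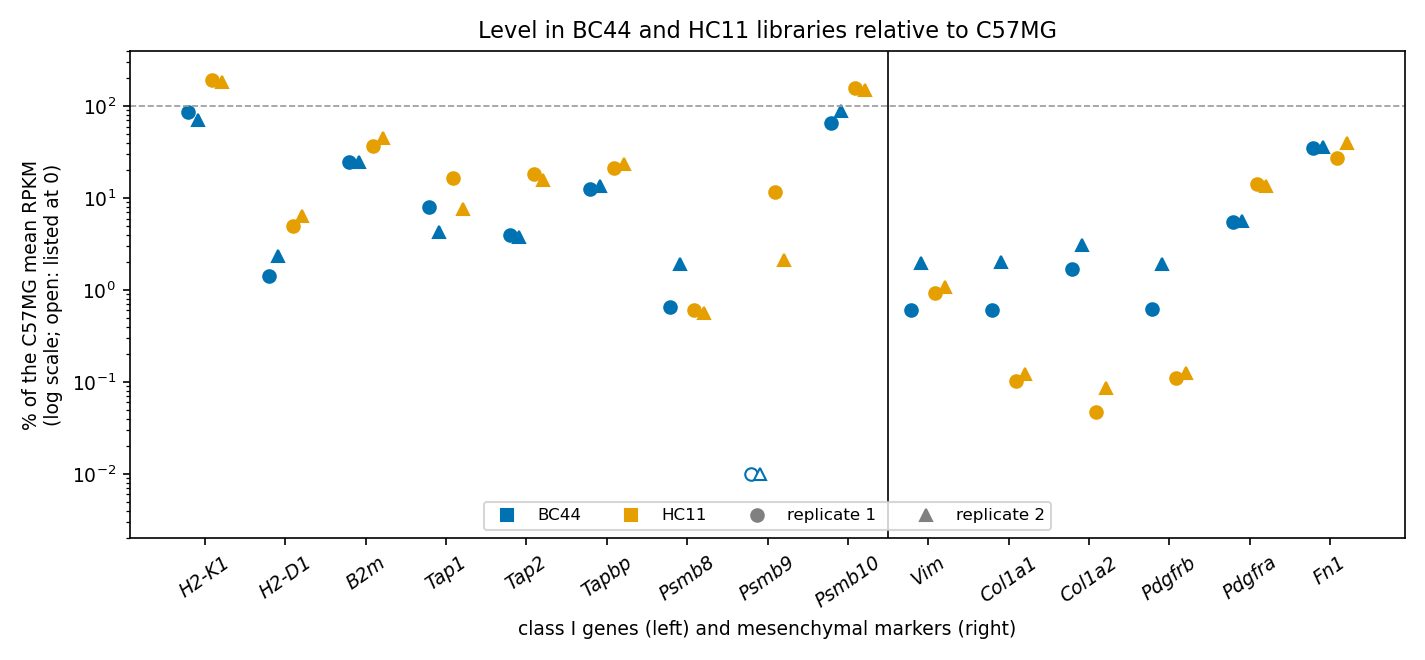
Level in each BC44 and HC11 library as a percentage of the C57MG mean (log scale; open symbols mark 0) for the 9 class I genes and 6 mesenchymal markers. In BC44, Psmb8 lies at the same 0.6% and 1.9% to 2.0% as Vim, Col1a1 and Pdgfrb. Col1a2 and Pdgfra lie at 1.71% to 5.64%, Tapbp and B2m between 12.5% and 25.0%, and Fn1 at 35.2% and 35.7%.

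Further genes of the pathway were taken from lists drawn up with earlier results of these data known, and the genes named below were chosen after their values were seen. Of 26 other class I and class I-like heavy chain genes, 8 were analysed here and 6 were tested. Between BC44 and C57MG, 5 of the 6 were higher in C57MG (34.1% of all tested genes) and 1 in BC44. Among the 5, Hfe was tested only because both C57MG libraries exceeded 1 RPKM. Both genes that were analysed but left out by the filter, Cd1d1 among them, were lowest in C57MG, without overlap between the lines. The filter thus bears on this count and on the median. The list's median log2 difference was -1.85 against 0.04 for all tested genes. With only genes averaging at least 5 RPKM, H2-M3 and Fcgrt were the only genes of the list tested, and these 2 were called. H2-M3, which presents formylated peptides, reached 16.3 ± 0.332 RPKM in C57MG, 4.07 ± 0.562 RPKM in HC11 and 0.653 ± 0.318 RPKM in BC44 (SD, n = 2 each). Mr1, which presents vitamin B metabolites, was at 5.80 ± 0.431, 1.34 ± 0.476 and 0.199 ± 0.0106 RPKM in the same order, and Fcgrt, the neonatal Fc receptor, at 19.5 ± 0.392, 0.739 ± 0.137 and 2.45 ± 0.711 RPKM. All 3 passed in both comparisons with C57MG, with limma adjusted p-values of 9.515e-07, 3.842e-06 and 3.854e-06 for BC44 against C57MG. H2-T23, the heavy chain of Qa-1, went the other way, with 2.07 ± 0.0863 RPKM in C57MG and 5.63 ± 0.26 in BC44 (log2 difference 1.11, SE 0.20, limma adjusted p 0.00152).

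The 17 genes of peptide loading and trimming did not share a direction, with 7 higher in C57MG, 6 higher in BC44 and 4 not passing between those lines, and a median of -0.11. Of all tested genes 71.7% passed between those lines, and 34.1% were higher in C57MG. Calr, the chaperone calreticulin, was highest in BC44, at 572 ± 9.05 RPKM against 289 ± 17.02 in C57MG (log2 difference 0.99, limma adjusted p 8.092e-05). Tapbpl, a relative of tapasin that edits peptides, averaged 3.43 ± 0.128 RPKM for BC44, 6.35 ± 0.208 for HC11 and 5.85 ± 0.0276 for C57MG (SD, n = 2). Among the 11 other core subunits of the proteasome, 5 were higher in BC44, 2 were higher in C57MG and 4 did not pass between those lines. Between HC11 and C57MG, 8 of 11 did not pass, where 70.5% of all tested genes passed. The 7 calls between BC44 and C57MG became 4 without BC44 replicate 1, 4 without BC44 replicate 2 and 3 without C57MG replicate 2.

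The proteasome activator genes Psme1 and Psme2, whose products open the proteasome and are induced by interferon gamma, were lowest in BC44. Psme1 averaged 9.51 ± 0.312 RPKM for BC44, 32.5 ± 3.47 for HC11 and 45.3 ± 0.131 for C57MG, and Psme2 averaged 12.8 ± 0.128, 36.6 ± 3.31 and 64.2 ± 9.06 RPKM (SD, n = 2). For BC44 against HC11 their differences in log2(RPKM + 1) were -1.67 and -1.44 (limma adjusted p 1.196e-05 and 5.705e-05). On that scale they were larger than those of any of the 8 class I genes in that comparison. By ratio of means, HC11 over BC44, Tap2 (4.42) was above Psme1 (3.42), and H2-D1 (2.98) was above Psme2 (2.86). Pomp, which assembles new proteasomes, had the opposite order, with 374.0 ± 0.943 RPKM for BC44, 303 ± 1.69 for HC11 and 139 ± 4.45 for C57MG.

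Of 22 listed regulators of class I transcription 19 were tested. Between BC44 and C57MG, 10 were higher in C57MG and 4 in BC44, where 71.7% of all tested genes passed and 34.1% were higher in C57MG. Between HC11 and C57MG, where 70.5% of all tested genes passed, 5 were higher in each. These last 10 calls became 5 without C57MG replicate 1, 5 without C57MG replicate 2 and 6 without HC11 replicate 1. Nlrc5, the transactivator that acts on class I promoters through the X and Y boxes, was at 2.38 and 2.65 RPKM in C57MG, 0.218 and 0.612 RPKM in HC11 and 0.027 and 0.052 RPKM in BC44. The C57MG libraries were above all others, by a log2 difference of -1.76 for BC44 against C57MG (SE 0.14, limma adjusted p 1.887e-05) and -1.33 for HC11 against C57MG (SE 0.14, adjusted p 9.975e-05). Like Tap1 and Psmb8, Nlrc5 was tested only because C57MG exceeded 1 RPKM. Irf1, an interferon-induced activator of these promoters, was low in BC44 only, at 5.02 ± 0.817 RPKM against 15.8 ± 1.60 in HC11 and 18.4 ± 2.38 in C57MG, and HC11 and C57MG did not pass (log2 difference -0.21, limma adjusted p 0.221). Nfkb1, a subunit of the factor that binds kappaB sites, was highest in HC11, at 82.8 ± 1.52 RPKM against 46.3 ± 1.35 in C57MG and 22.5 ± 0.745 in BC44.

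Of 8 interferon receptor, kinase and feedback genes, 7 were higher in C57MG than in BC44 (34.1% of all tested genes) and 1 did not pass. Against HC11, 3 were higher in C57MG (33.2% of all tested genes) and 5 did not pass. Without HC11 replicate 2 the latter calls became 5. Ifngr1, the ligand-binding chain of the interferon gamma receptor, was at 36.6 ± 0.517 RPKM in C57MG, 9.63 ± 1.49 in HC11 and 7.59 ± 0.402 in BC44 (log2 differences of -2.13 and -1.83 for BC44 and HC11 against C57MG, limma adjusted p 2.295e-06 and 5.782e-06). Socs1, which restrains the receptor's signal, averaged 7.59 ± 0.81 RPKM for C57MG, 6.46 ± 0.651 for HC11 and 0.530 ± 0.115 for BC44 (SD, n = 2 libraries).

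Most tested genes of the H2 region outside class I and II presentation were also higher in C57MG. Of 28 tested, 22 were higher in C57MG than in BC44 (34.1% of all tested genes), 3 were higher in BC44 (Abcf1, Tubb5 and Atf6b) and 3 did not pass. Against HC11, 22 were higher in C57MG (33.2% of all tested genes), 3 were higher in HC11 (Abcf1, Tubb5 and Gnl1) and 3 did not pass. Notch4, among the 22 in both comparisons, was tested only because both C57MG libraries exceeded 1 RPKM. The medians were -0.72 and -0.69 on the log2 scale. The 489 tested genes of chromosome 17 outside the pathway, class II and H2 region lists had medians of -0.10 and -0.21, with 41.3% and 44.6% of them higher in C57MG. Genes of the cell type marker lists were not removed from the 489. Rps18, a ribosomal protein gene, was at 226 ± 4.83 RPKM in C57MG, 79.9 ± 11.4 in HC11 and 73.1 ± 1.22 in BC44, and Flot1 was at 18.0 ± 2.50, 5.79 ± 2.42 and 1.40 ± 0.19 RPKM (SD, n = 2). H2-D1, Tap1, Tap2, Tapbp, Psmb8 and Psmb9 lie in the same region and B2m on chromosome 2, and what part a change of the whole region has in their values was not tested. Of the 6 H2 region genes tested among the 9, H2-K1 was the one that was not highest in C57MG.

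**Figure D5:**
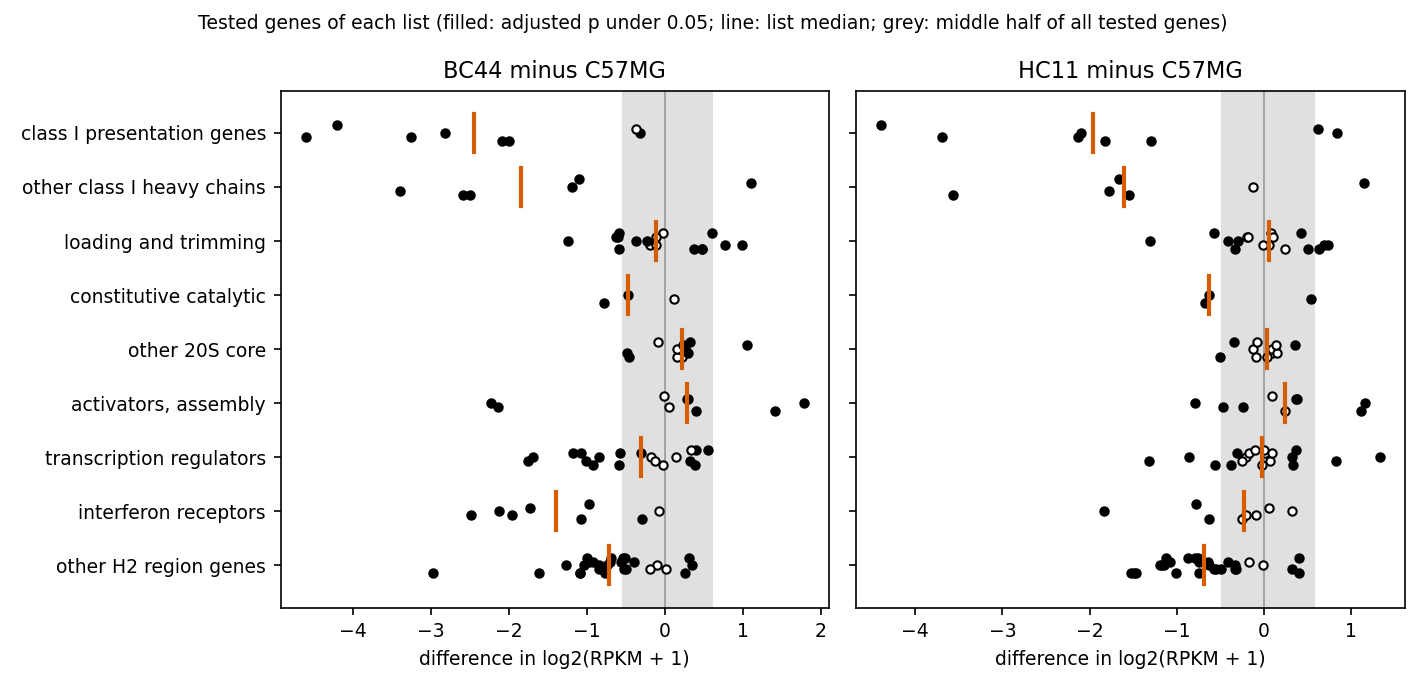
Difference in log2(RPKM + 1) between BC44 and C57MG (left) and between HC11 and C57MG (right) for the tested genes of each list; filled points have an adjusted p under 0.05, the coloured line is the list's median and the grey band holds the middle of all tested genes, between their quartiles. The class I presentation genes, other class I heavy chains and other H2 region genes have medians left of the grey band in both panels. The interferon receptor list has a median left of the band in the left panel only (-1.40). The constitutive catalytic list has one in the right panel only (-0.635). Loading and trimming genes have medians near 0.

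The genes whose pattern lay nearest to each class I gene were found by the root-mean-square distance between log2(RPKM + 1) values over the 6 libraries, each gene centred on its own mean. The 6 libraries come from only 3 lines, so many genes have similar patterns, and no test was made. Nearest to H2-D1 were Lgals9, Ntn1 and Tnfrsf9, at distances of 0.075, 0.118 and 0.149. Nearest to B2m were Plec, Peak1 and Trim65 (0.063, 0.067 and 0.070), and nearest to Tapbp were Galk2, Sgk1 and Dpysl3 (0.057, 0.058 and 0.073). For Tap1 they were Gstp1, Ifngr1 and Paqr7 (0.065, 0.087 and 0.092), and for Tap2 P3h1, Pdgfra and Eva1b (0.137, 0.154 and 0.165). For Psmb8 they were Lbp, Apln and Ankrd55 (0.070, 0.074 and 0.093). For H2-K1 they included Scand1 and Tgif1 (0.064 and 0.067), and for Psmb10 they were Gm14322, Rffl and Dcun1d2 (0.115, 0.116 and 0.128). No class I gene was among the 3 nearest of another.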

How the data were processed

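Poly(A) RNA from 3 mouse mammary cell lines was made into strand-directional libraries, with 2 libraries per line, per the labels' protocols. The authors deposited 1 table of RPKM values for 11417 genes, rounded to 3 decimals, with 1 column per library. The submitters' processing notes name STAR and mm9; the counter, annotation, gene lengths and filters are not given in the sources used here. All 11417 identifiers matched GENCODE M21 symbols, and no coordinates were converted between builds. Depth was estimated from the steps between low values, using union exon lengths of GENCODE M21. Of the low values used per library, 77.5% to 83.2% lay within 0.15 of a whole read, against 30.0% by chance, so read numbers are estimates and cover counting error only.

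Tests used linear models of limma 3.58.1 (R 4.3.3) with a mean-variance trend on log2(RPKM + 1), with all 6 libraries in 1 model and 2-sided p-values. The model was also run on simulated data with independent libraries and few genes changed, in BC44 alone. That setting differs from these data, so the run checks the code only. Fits for each comparison without a library leave 1 line with a lone library, which is assumed to vary like the others. With 2 libraries a line, no exact permutation p can fall under 0.33, so none was used. Other steps ran in Python 3.11.15 (pandas 2.3.3, numpy 2.4.6, matplotlib 3.10.9). The alternatives were another pseudocount, 2 other filters, 2 other scalings, 3 other variance models, the replicate number as a block, and each library left out in turn. The members and lists were chosen with earlier results of these data known. By rule every member and the 3 nearest genes per tested member were named, except 1 that is not reported here, and further list genes could be named (from lists of over 10 genes, those averaging at least 1 RPKM for some line). Which of these to name was chosen after their values and their values under the alternatives were seen, and genes with unstable calls were left out, so the named genes say nothing of how steady their lists are.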

Additional observations from a re-analysis of the deposited data

How the results depend on the processing

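The number of class I genes passing limma's adjusted threshold was 6 of 8 between BC44 and HC11, 7 of 8 between BC44 and C57MG and 8 of 8 between HC11 and C57MG. Over the alternatives other than the replicate block and left-out libraries, the counts were 6, 6 to 8 and 7 to 9 in the same order. With only genes averaging at least 5 RPKM tested, 7 of the genes entered and the counts took their lowest values; with no filter Psmb9 entered and they took their highest. Leaving out 1 library gave 6 to 7, 6 to 7 and 7 to 8. No log2 difference of a tested class I gene changed sign in any alternative that was run. Of 144 such values with a library left out, 136 stayed on their side of the threshold, and the 8 others belong to H2-K1, Tap1 and Psmb10, as given above.

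No log2 difference of the 8 genes other than that of Psmb10 between BC44 and C57MG changed its call with the replicate block. With it 6, 8 and 8 genes passed, and 5350, 7875 and 7721 of all tested genes against 5129, 7713 and 7590 without. Deviations of same-numbered libraries from the line means correlated across genes by 0.354 between BC44 and HC11. With C57MG the correlations were -0.039 for BC44 and 0.038 for HC11. Same-numbered libraries of BC44 and HC11 thus deviated together in part, and what they share was not tested. Counts for the further gene lists were less steady, and 44 of 585 moved by more than 1.5 times. With 2 libraries per line the precision is limited. Depth limits what can be read for Tap1, Psmb8, Psmb9 and Nlrc5 in BC44 and HC11, and for H2-D1 and Tap2 in BC44.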

Other observations

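Of 10 class II presentation genes, H2-DMa and H2-DMb1 were analysed here. They encode the chains of the DM peptide exchanger, and they differed in opposite directions. H2-DMb1, which lies next to Psmb9, was at 12.9 and 14.1 RPKM in C57MG, against 0 and 0.155 RPKM for BC44 and 0.036 and 0 RPKM for HC11 (log2 differences of -3.75 and -3.83 for BC44 and HC11 against C57MG, limma adjusted p 2.746e-07 and 2.563e-07). H2-DMb1 was tested only because both C57MG libraries exceeded 1 RPKM. H2-DMa was highest in BC44, at 3.55 ± 0.0134 RPKM, against 1.40 ± 0.0587 in HC11 and 0.653 ± 0.0297 in C57MG (SD, n = 2 each), and BC44 exceeded C57MG by 1.46 on the log2 scale (limma adjusted p 5.793e-06).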
